A study of Homo sapiens with 4 samples.

Results

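The inducible heat shock protein HSPA1A and 9 genes that work with it were followed in the human pre-B leukemia line Nalm-6, in which subunits of the INO80 chromatin remodeling complex had been altered. The genes were the HSP70 proteins HSPA1A, HSPA1L and HSPA8, the J-domain cochaperones DNAJB1 and DNAJA1, the nucleotide exchange factors HSPA4, HSPA4L, HSPH1 and BAG3, and the transcription factor HSF1. All probes whose RefSeq accession maps to these genes were taken, which gave 18 probes for the 10 genes, of 27210 probes for 18203 genes with a symbol on the array. There were 4 cultures with 1 array each: wild type (WT), Arp5 KO, Arp8 KO and a culture labelled Arp8 OE (Arp8 overexpression). Arp5 and Arp8 are actin-related proteins of INO80, and the question was what the loss of either does to transcription under oxidative stress caused by heme. In the Arp5 KO line both alleles of the gene had been disrupted with targeting vectors in 1 established line. The Arp8 KO line had been made earlier by a protocol that was then modified for Arp5. The paper on these cultures reports that a conditional knockout of Arp8 kills the cells, while Arp5 KO cells live and grow somewhat slowly. It does not say how long Arp8 had been lost before the arrays. The origin of the Arp8 OE culture is not given in the sources used here.

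The treatment of the knockouts is not settled by the labels. Titles and treatment protocol give 20 uM heme for 12 h for every culture, the treatment field of both knockouts says that no heme was given, and the source name says without heme for Arp5 KO and with heme for Arp8 KO. Genotype and heme therefore cannot be told apart in a comparison of a knockout with WT. With 1 array per group no difference was checked against a second culture and no test between conditions was made. The only error available is technical: the spread between the spots of probes printed 10 times on the same array, whose SD on the log2 scale had a median of 0.0561 to 0.0624 over the 4 arrays. In each comparison below this SD was taken from the repeated probes nearest in level and combined over both arrays. A difference was set against 2 such SDs, which cover neither the culture nor the labelling. The repeated probes used were all well above background, so a probe under detection took the SD of brighter ones. At the dim end the same SD recurred: HSPA1L and BAG3 both had 0.1448 in Arp5 KO against WT.

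HSP70 proteins bind unfolded stretches of other proteins and release them in a cycle driven by ATP. J-domain proteins such as DNAJB1 bring clients and trigger ATP hydrolysis, and exchange factors such as HSPH1 and BAG3 promote the release of ADP so that the client can leave. HSF1 is the factor that turns on HSPA1A and many of its partners when proteins are damaged by heat, heavy metals or oxidants, by binding heat shock elements, which are inverted repeats of the unit nGAAn. HSPA8 is the constitutive relative that serves in unstressed cells, and HSPA1L is a close relative best known from the testis, encoded head to head with HSPA1A.

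The upstream sequences of the genes are shown first, since heat shock elements are what the inducible members are known for. RefSeq promoter windows of build GRCh38.p14 were read for the 9 members other than HSF1, with 13 start sites in all, and the 250 bases before each start were searched on both strands for GAANNTTC and TTCNNGAA, 2 inverted units that can overlap in a longer run, and for the runs of 3 units GAANNTTCNNGAA and TTCNNGAANNTTC. Of 35116 windows of 27305 genes, 11.6% held at least 1 of the 8-letter motifs, 1.32% held at least 2, and 0.441% held a run of 3 units. A match is a description of letters and not a binding site. The window of HSPA1A is printed in full because the gene has 3 probes past 2-fold in both knockouts; it lies at chr6:31815293-31815542 on the plus strand, before the start site and between the genes HSPA1L and HSPA1A, with the match in capitals.
HSPA1A window: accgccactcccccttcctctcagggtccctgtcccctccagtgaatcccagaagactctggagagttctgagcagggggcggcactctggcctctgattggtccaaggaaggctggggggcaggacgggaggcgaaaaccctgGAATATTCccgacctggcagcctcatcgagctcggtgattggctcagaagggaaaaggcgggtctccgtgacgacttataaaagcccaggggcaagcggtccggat

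The match stands at −106 to −99 from the HSPA1A start. HSPA1L is read in the other direction from a start 259 bases away, so that its window shares 241 of 250 bases with that of HSPA1A and the same element lies at −161 to −154 from its own start. HSPA1B, a near-identical copy of HSPA1A, has the element at −105 to −98, and the windows of both copies are the same at 235 of 251 aligned positions (93.6%). No probe on the array maps to HSPA1B by accession, and the probe sequences were not used here, so signal from HSPA1B in the HSPA1A probes cannot be told apart from signal of HSPA1A itself.

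The stretches with matches upstream of HSPA8, DNAJB1 and DNAJA1 are printed below to set the constitutive gene beside the inducible cochaperones, again with matches in capitals. The HSPA8 stretches lie at chr11:123062346-123062374 and chr11:123062171-123062199 on the minus strand, the DNAJB1 stretches at chr19:14518457-14518484 and chr19:14518427-14518454 on the minus strand, and the DNAJA1 stretch at chr9:33025065-33025092 on the plus strand.
HSPA8 distal: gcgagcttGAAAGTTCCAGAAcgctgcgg
HSPA8 proximal: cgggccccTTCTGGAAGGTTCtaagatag
DNAJB1 distal: gggcggggcgGAAGGTTCtggagggggc
DNAJB1 proximal: gcgggctctgGAAGCTTCcgccggacgg
DNAJA1: aagggctccaGAAGATTCcacgagcgcc

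Among the members HSPA8 alone held runs of 3 units, 1 at −230 to −218 and 1 at −55 to −43. DNAJB1 had matches at −77 to −70 and −47 to −40 from the second of its 3 starts, DNAJA1 had 1 at −198 to −191, and HSPA4L had 1, TTCNNGAA, at −170 to −163 from the second of its 3 starts. In all 6 members had a match within 250 bases, and the windows of HSPA4, HSPH1 and BAG3 did not hold these letters. Counted by window, 6 of 13 member windows held a match, where 11.6% of all windows did. The windows of HSPA1A and HSPA1L count the same element.

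**Figure D1:**
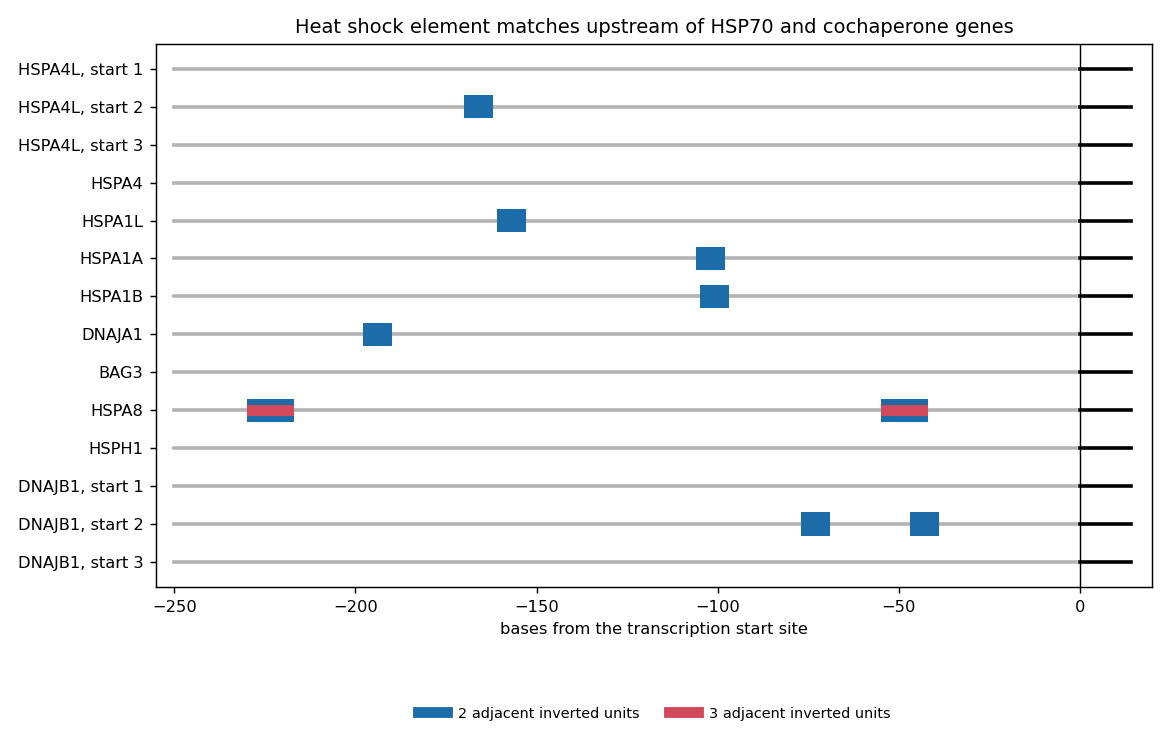
Positions of heat shock element matches in the 250 bases before each RefSeq start site (x axis, bases from the start site at 0) for HSPA1B and the members other than HSF1. Blue bars mark 2 adjacent inverted units and red bars runs of 3 units. HSPA1A, HSPA1L and HSPA1B have 1 match each, and HSPA8 is the member with runs of 3.

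Each array held 43376 spots for 41000 probes, the value used for scaling, the 75th percentile of processed signal, lay between 647.4 and 739.6, and 55.8% to 57.4% of probes were well above background. ACTR5, the gene of Arp5, was lower in Arp5 KO than in WT by a log2 difference of −4.27. The probes of ACTR8, the gene of Arp8, differed by −0.53 and −0.68 in Arp8 KO, and by 0.02 and −0.01 on the array labelled Arp8 OE, which thus does not show a raised ACTR8 level. Whether these probes lie in the disrupted parts of the genes is not known here, so a modest difference does not check the label. All 13 probes of 9 B-cell precursor markers were well above background on all 4 arrays, while 0 of 4 T-cell, 1 of 3 myeloid and 1 of 4 erythroid marker probes were. In RNA of whole cultures, fewer cells that express a gene and less of its RNA per cell cannot be told apart.

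HSPA1A was lower in both knockouts than in WT on all 3 of its probes, by 2.25- to 6.34-fold, and it was lower to a smaller extent on the array labelled Arp8 OE. Levels here are log2 of the processed signal over the array's 75th percentile, a scale on which only values of the same probe are compared. Probe A_23_P111132 had a level of −0.35 in WT and −0.96 in Arp8 OE, against −3.01 in Arp5 KO and −2.96 in Arp8 KO. Probe A_24_P123616 gave 0.92 and 0.10, against −0.29 and −0.25, in the same order of arrays. Probe A_24_P682285 gave 0.37 and −0.47, against −0.87 and −0.93. On every probe WT was the highest, Arp8 OE came next, and the knockouts lay together at the low end.

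The log2 difference of probe A_23_P111132 from WT was −2.66 ± 0.12 (technical SD) in Arp5 KO and −2.62 ± 0.11 in Arp8 KO, against −0.61 ± 0.09 in Arp8 OE. The first value ranked 85 from the lowest of 24285 probes tested, and the value in Arp8 KO ranked 135 of 24578. The other probes showed a smaller gap: in the order Arp5 KO, Arp8 KO, Arp8 OE, A_24_P123616 differed by −1.22 ± 0.08, −1.17 ± 0.08 and −0.82 ± 0.08, and A_24_P682285 by −1.24 ± 0.09, −1.29 ± 0.08 and −0.84 ± 0.08. The 3 probes of HSPA1A thus gave the same direction with sizes that spanned 1.45 log2 units in each knockout and 0.22 in Arp8 OE. All 9 differences were beyond 2 technical SDs. With normexp background correction, which adds an offset to every spot, the first probe differed by −1.91 and −1.79 in Arp5 KO and Arp8 KO and by −0.51 in Arp8 OE, and the other probes stayed past 2-fold in both knockouts.

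The knockouts did not differ from each other in HSPA1A beyond the technical error: Arp8 KO minus Arp5 KO was 0.05, 0.05 and −0.06 on the 3 probes. Against Arp8 OE, which leaves the WT array out, Arp5 KO was lower by log2 differences of −2.05, −0.40 and −0.40 and Arp8 KO by −2.0, −0.35 and −0.45. All 6 of these were beyond 2 technical SDs, and 1 probe in each comparison was past 2-fold. Over all probes tested, 3.28% were over 2-fold lower in Arp5 KO than in Arp8 OE and 3.78% in Arp8 KO than in Arp8 OE. No member was past 2-fold between the knockouts, where 5.71% of all probes were, in either direction.

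HSPA1L was detected in WT and in Arp8 KO and not well above background on the other arrays. Its probe, A_23_P70547, had a level of −3.14 in WT, −4.77 in Arp8 KO, −5.07 in Arp5 KO and −5.24 in Arp8 OE. Where a probe was not well above background, the lowest level of any probe well above background on that array was used if it was higher, which makes the difference a bound. Against WT, HSPA1L was thus lower by at least 3.79-fold in Arp5 KO, by 3.10-fold in Arp8 KO and by at least 3.19-fold in Arp8 OE. On the log2 scale the Arp8 KO difference was −1.63 ± 0.14. These sizes depend on the background: with normexp the differences were −0.70, −0.67 and −0.65, none of them past 2-fold. WT stood alone at the top, and Arp5 KO and Arp8 OE, both dim, did not differ beyond the technical error.

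**Figure D2:**
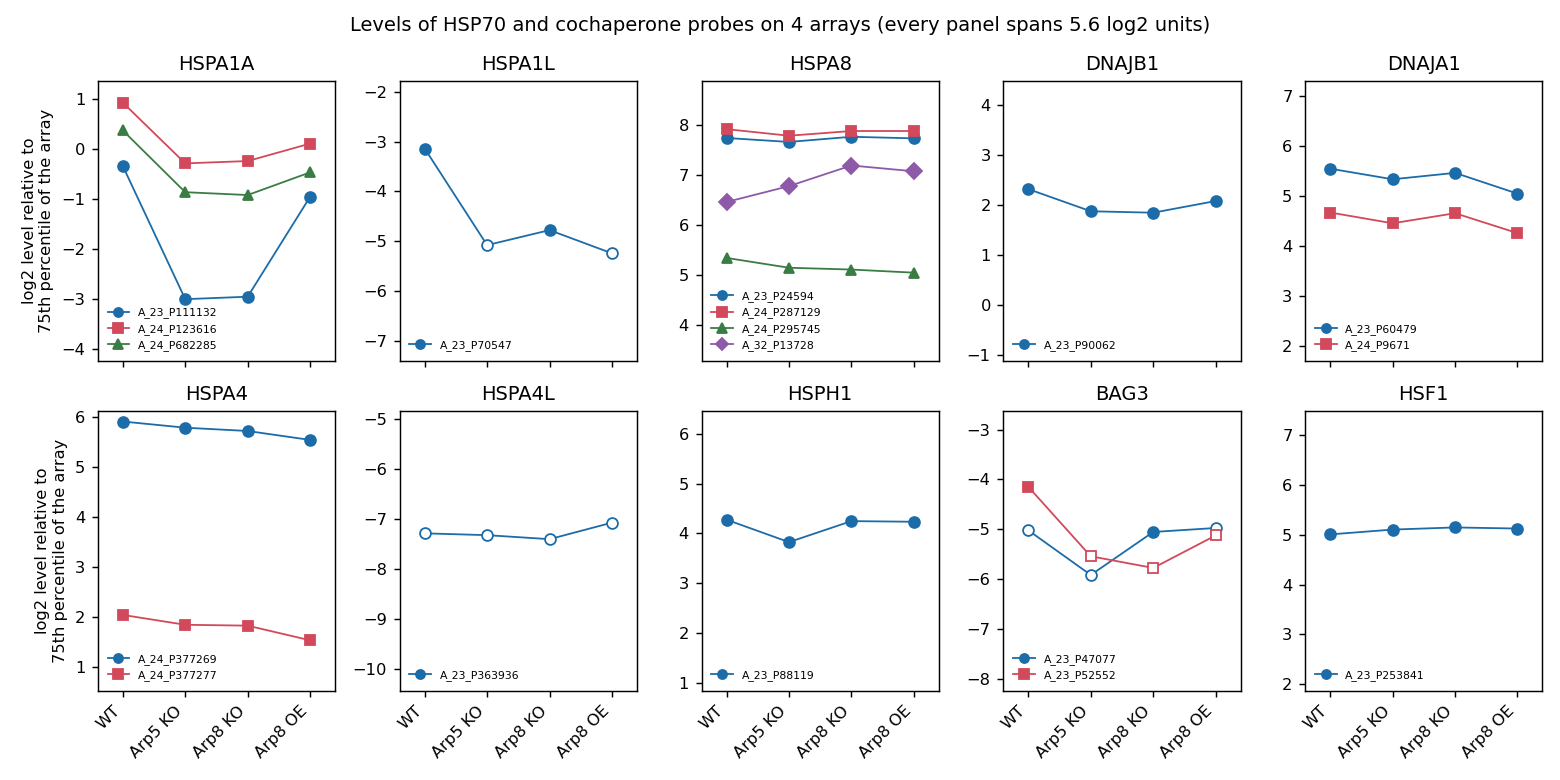
Log2 level relative to the array's 75th percentile (y axis, every panel spanning 5.6 units) of the 18 probes on the 4 arrays, 1 panel per gene and 1 line per probe. Open symbols are not well above background. HSPA1A is lower in both knockouts than in WT on 3 of 3 probes. On this scaling the HSF1 probe and 2 of the 4 HSPA8 probes stay within 2 technical SDs of WT on every array.

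HSPA8, the constitutive HSP70, had probes that did not move alike. Probe A_23_P24594 had levels of 7.74, 7.66, 7.76 and 7.73, in the order WT, Arp5 KO, Arp8 KO, Arp8 OE, and probe A_24_P287129 had 7.92, 7.79, 7.88 and 7.88. On this scaling none of the differences of these probes from WT was beyond 2 technical SDs, and the widest was −0.13 ± 0.07 in Arp5 KO. With quantile normalization they stood at −0.16 and −0.21 in Arp8 KO and at −0.17 and −0.21 in Arp8 OE, beyond 2 of the same SDs. Probe A_24_P295745, the only one designed on the other accession of the gene, was slightly lower on each of the other arrays than in WT, by −0.20, −0.23 and −0.30. Probe A_32_P13728 went the other way: its level was 6.46 in WT, against 6.78 in Arp5 KO, 7.07 in Arp8 OE and 7.19 in Arp8 KO. Its differences of 0.32, 0.61 and 0.73, each ± 0.07, were the highest of any member in all 3 comparisons with WT, and no array overlapped WT within 2 technical SDs. The HSPA8 probes therefore disagree on direction, and no single direction is given for the gene. The spot of A_24_P295745 had 1 adjacent spot that was bright on Arp8 OE alone, and its part in the value was not tested.

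Among the J-domain cochaperones, DNAJB1, the heat-inducible partner of HSPA1A, was modestly lower in both knockouts. Its probe A_23_P90062 had levels of 2.32 in WT, 2.08 in Arp8 OE, 1.87 in Arp5 KO and 1.85 in Arp8 KO. The log2 differences from WT were −0.24 ± 0.07 in Arp8 OE, −0.44 ± 0.07 in Arp5 KO and −0.47 ± 0.08 in Arp8 KO, that is 1.18-, 1.36- and 1.39-fold lower, all beyond 2 technical SDs. The order of the arrays was that of HSPA1A, with WT highest, Arp8 OE next and the knockouts together, apart by 0.03.

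DNAJA1, a J-domain partner of the cytosolic HSP70 proteins, had another order, and its lowest array was Arp8 OE on both probes. Probe A_23_P60479 had levels of 5.55 in WT, 5.47 in Arp8 KO, 5.34 in Arp5 KO and 5.05 in Arp8 OE, and probe A_24_P9671 had 4.67, 4.66, 4.46 and 4.26. WT and Arp8 KO did not differ beyond 2 technical SDs on either probe. The differences from WT were −0.21 and −0.22 in Arp5 KO, and −0.50 and −0.41 in Arp8 OE. The spot of A_23_P60479 had 1 adjacent spot bright on Arp8 KO alone; the other probe, without such a neighbour, gave −0.01 in Arp8 KO against −0.08.

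The exchange factors of the HSP110 family differed in which array was low. HSPA4 had levels of 5.91 in WT, 5.78 and 5.72 in Arp5 KO and Arp8 KO, and 5.54 in Arp8 OE on probe A_24_P377269, and of 2.03, 1.84, 1.82 and 1.53 on A_24_P377277. It was lowest in Arp8 OE on both, by −0.37 and −0.51 from WT, and the knockouts did not differ from each other beyond 2 technical SDs. In Arp5 KO the first probe, at −0.12, was within 2 technical SDs of WT and the second, at −0.20, was not. HSPH1, the stress-inducible member of the family, was low on 1 array: probe A_23_P88119 had levels of 4.28 in WT, 4.25 in Arp8 KO, 4.23 in Arp8 OE and 3.83 in Arp5 KO. Its difference in Arp5 KO was −0.45 ± 0.07 from WT, −0.41 from Arp8 OE, and Arp8 KO was higher than Arp5 KO by 0.42 ± 0.07. The other arrays lay within 2 technical SDs of each other. HSPA4L, with levels between −7.40 and −7.07 on probe A_23_P363936, failed the detection flag on all 4 arrays, so it has no difference.

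BAG3, the inducible exchange factor that links HSP70 to autophagy, lay near the detection limit. Probe A_23_P52552 was well above background in WT alone, at −4.15, against −5.12 in Arp8 OE, −5.54 in Arp5 KO and −5.77 in Arp8 KO. Its level was lower by at least 1.88-fold in Arp5 KO, by at least 2.03-fold in Arp8 KO and by at least 1.59-fold in Arp8 OE. With normexp the differences were −0.32, −0.45 and −0.17, so that the call in Arp8 KO was lost. The other probe, A_23_P47077, had levels of −5.02, −5.91, −5.05 and −4.97 and passed the detection flag in Arp8 KO alone, at a level below the WT value, so that it gives no fold; it does not repeat the pattern of the first.

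HSF1, the transcription factor upstream of these genes, did not differ from WT beyond 2 technical SDs on any array. Its probe A_23_P253841 had levels of 5.0 in WT, 5.10 in Arp5 KO, 5.12 in Arp8 OE and 5.14 in Arp8 KO, with differences of 0.10 ± 0.07, 0.12 ± 0.07 and 0.14 ± 0.07. Beside its spot lay 2 spots bright on the Arp5 KO array alone, and their part in that value was not tested. With scaling to the median instead, the HSF1 difference in Arp8 KO was 0.16, just beyond 2 technical SDs. The array measures HSF1 mRNA and not the activity of the protein.

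**Figure D3:**
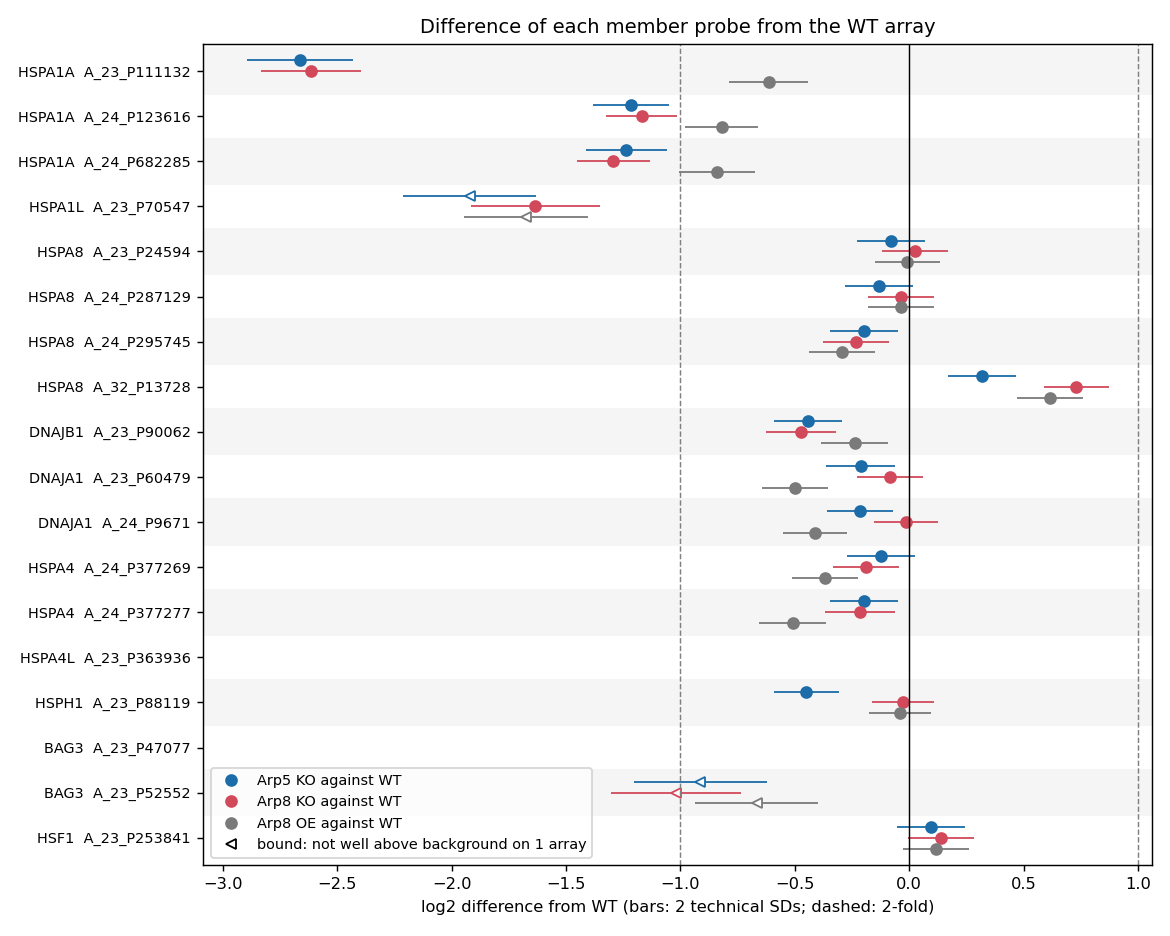
Log2 difference of each probe from the WT array (x axis) in Arp5 KO (blue), Arp8 KO (red) and Arp8 OE (grey), with bars of 2 technical SDs and dashed lines at 2-fold. Open triangles are bounds. HSPA4L and the BAG3 probe A_23_P47077 have no difference to plot; the HSPA1A probe A_23_P111132 lies furthest to the left in the knockouts, and 1 HSPA8 probe lies to the right of 0 on all 3 arrays.

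Counted together, 4 of the 16 member probes tested in Arp5 KO were over 2-fold lower than in WT (25.0%, from HSPA1A and HSPA1L), where 2.01% of all probes tested were; 0 were over 2-fold higher, against 1.69% of all probes. In Arp8 KO, 5 of 17 were over 2-fold lower (29.4%, from HSPA1A, HSPA1L and BAG3), against 4.35% of all probes, and 0 were higher, against 3.37%. In Arp8 OE 1 of 16, HSPA1L, was over 2-fold lower (6.25%), against 2.15% of all probes, and 0 were higher, against 2.96%. The probes of HSPA1A make up 3 of the lower ones in each knockout, so the counts rest on few genes. These were 2 in Arp5 KO, 1 in Arp8 OE and 3 in Arp8 KO. The HSPA1L probe in Arp5 KO and Arp8 OE, and the BAG3 probe in Arp8 KO, passed the detection flag on WT only. Where only WT was detected, the floor lets a probe come out lower or without a difference, not higher. With detection required on both arrays, 3 member probes were over 2-fold lower in Arp5 KO, 0 in Arp8 OE and 4 in Arp8 KO. The shares over all probes were not recomputed under that rule.

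The median log2 difference over the members was −0.21 and −0.20 in Arp5 KO and Arp8 KO and −0.39 in Arp8 OE, while the median of all probes was 0.00, 0.03 and 0.00. Among the 16 probes with a difference in each comparison, 14 lay below 0 in Arp5 KO and also in Arp8 OE, and 13 in Arp8 KO. The share of all probes below 0 was not computed, and several of the 16 probes belong to the same gene. These counts therefore say nothing about the members as a set. The probes below 0 include those of HSPA1L and BAG3 where only WT was detected, which could not lie above 0. With detection required on both arrays the medians were −0.20 for Arp5 KO, −0.33 for Arp8 OE and −0.19 for Arp8 KO. The 3 comparisons share the WT array, and no member spot lay beside a spot that was bright on WT alone, against 4.61% of probes above background on any array. Without WT the members lay close to 0: the median was −0.08 for Arp5 KO against Arp8 OE and 0.03 for Arp8 KO against Arp8 OE. In these direct comparisons HSPA1A remained lower on all of its probes in both knockouts and DNAJB1 was lower by −0.21 and −0.23, whereas DNAJA1 was higher by 0.20 to 0.42 and HSPA4 by 0.18 to 0.31, all beyond 2 technical SDs.

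**Figure D4:**
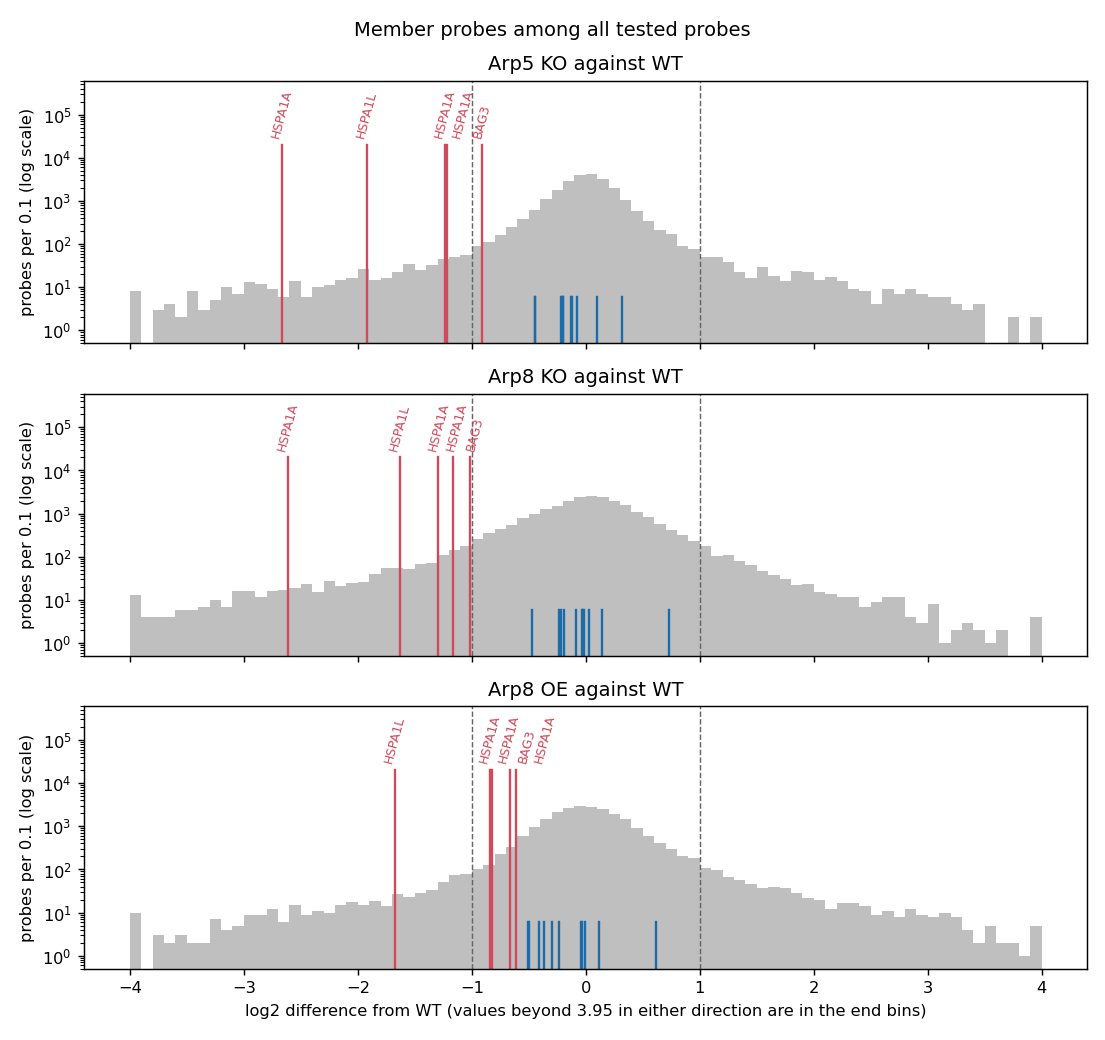
Histograms of the log2 difference from WT of all probes tested (grey; y axis, probes per 0.1 on a log scale) with the member probes as vertical lines, 1 panel per comparison. Red lines are the probes of HSPA1A, HSPA1L and BAG3, named in each panel in the order in which they stand, blue lines the other members, and dashed lines 2-fold. Most members sit in the body of the distribution, and the red lines lie at its left.

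The wider HSP70 network is given by list, and its counts stand against the shares over all probes: over 2-fold lower than WT were 2.01% in Arp5 KO, 2.15% in Arp8 OE and 4.35% in Arp8 KO. Over 2-fold higher than WT were 1.69% in Arp5 KO, 2.96% in Arp8 OE and 3.37% in Arp8 KO. Of 10 other genes of the HSP70 family, 9 had a probe. In Arp5 KO 1 of 9 probes tested was over 2-fold lower than in WT, HSPA6, a strictly heat-inducible HSP70, at −1.18; its differences were −0.71 in Arp8 KO and −0.20 in Arp8 OE. HSPA5, the HSP70 of the endoplasmic reticulum, was over 2-fold lower in Arp8 OE on 1 probe, at −1.01, and at −0.45 on its other probe. The medians of this family were −0.46 in Arp8 KO and −0.32 on both other arrays. None of its 9 probes tested was over 2-fold higher, a list too small to set apart from the shares over all probes.

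Other J-domain proteins, with a probe for 39 of 44 genes, had medians of −0.09, −0.10 and −0.12 over 55 probes, of which 1, 2 and 1 were over 2-fold lower, shares near those over all probes. DNAJC25 was over 2-fold lower in Arp5 KO at −1.06, and lower by at least 4.91-fold in Arp8 KO and by at least 3.85-fold in Arp8 OE, with 1 adjacent spot bright on Arp5 KO alone. DNAJB4, a relative of DNAJB1, was past 2-fold in Arp8 KO on 1 probe at −1.02, with −0.90 on its other probe, and stood at −0.93 and −0.86 in Arp5 KO and at −0.62 and −0.66 in Arp8 OE on the same probes. DNAJA4 and DNAJC22 were over 2-fold higher in Arp8 OE on 1 probe each, that is 2 of 55 probes, near the 2.96% of all probes. Both values are bounds, since these probes passed the detection flag in Arp8 OE alone. Each of these spots had 2 adjacent spots bright on Arp8 OE alone, and the other probe of either gene was not well above background. The part of these neighbours was not tested.

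None of the 22 probes tested of other exchange factors and partners, such as BAG1, STIP1 and the ubiquitin ligase STUB1, was past 2-fold in any comparison with WT, a list too small to set this count apart from the shares over all probes, with medians of −0.09, −0.14 and −0.14. Among the other heat shock factors, HSF2 stayed near WT, at 0.10 and 0.13 in Arp5 KO and Arp8 KO on one probe and at 0.10 and 0.15 on the other. HSF4, a factor known from the lens, was higher than in WT by 0.70 and 0.76 in Arp5 KO and Arp8 KO and by 1.06 in Arp8 OE, the last of these past 2-fold. It was 1 of 5 probes tested in this list, where 2.96% of all probes were over 2-fold higher in Arp8 OE.

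Other heat-inducible chaperones included several genes that were over 2-fold lower in Arp8 KO. Of 18 probes tested, 6 were over 2-fold lower in Arp8 KO, the array with 4.35% of all probes lower, 0 in Arp5 KO (2.01%) and 0 in Arp8 OE (2.15%), with medians of −0.50, −0.28 and −0.32. HSPB1, the small heat shock protein HSP27, was lower on all 3 probes, by −1.36, −1.30 and −1.31 in Arp8 KO, against −0.44, −0.36 and −0.41 in Arp5 KO and −0.32, −0.30 and −0.26 in Arp8 OE. The cytosolic HSP90 genes split by probe. HSP90AA1 was past 2-fold in Arp8 KO at −1.06 and −1.24 on 2 of 4 probes, with −0.69 and −0.18 on the others; in Arp8 OE the same probes stood at −0.77, −0.98, −0.68 and −0.10. HSP90AB1 was past 2-fold in Arp8 KO at −1.17 on 1 of 3 probes, with −0.59 and −0.45 on the others, against −0.73, −0.42 and −0.31 in Arp8 OE. HSPD1 and HSPE1, the mitochondrial pair, were near WT in Arp8 KO on 1 probe each, at −0.02 and 0.01, and the other HSPD1 probe was at −0.52. HSPA1A and HSPB1 thus had different patterns over the knockouts: HSPA1A did not differ between them beyond 2 technical SDs, and HSPB1 was lower in Arp8 KO than in Arp5 KO.

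**Figure D5:**
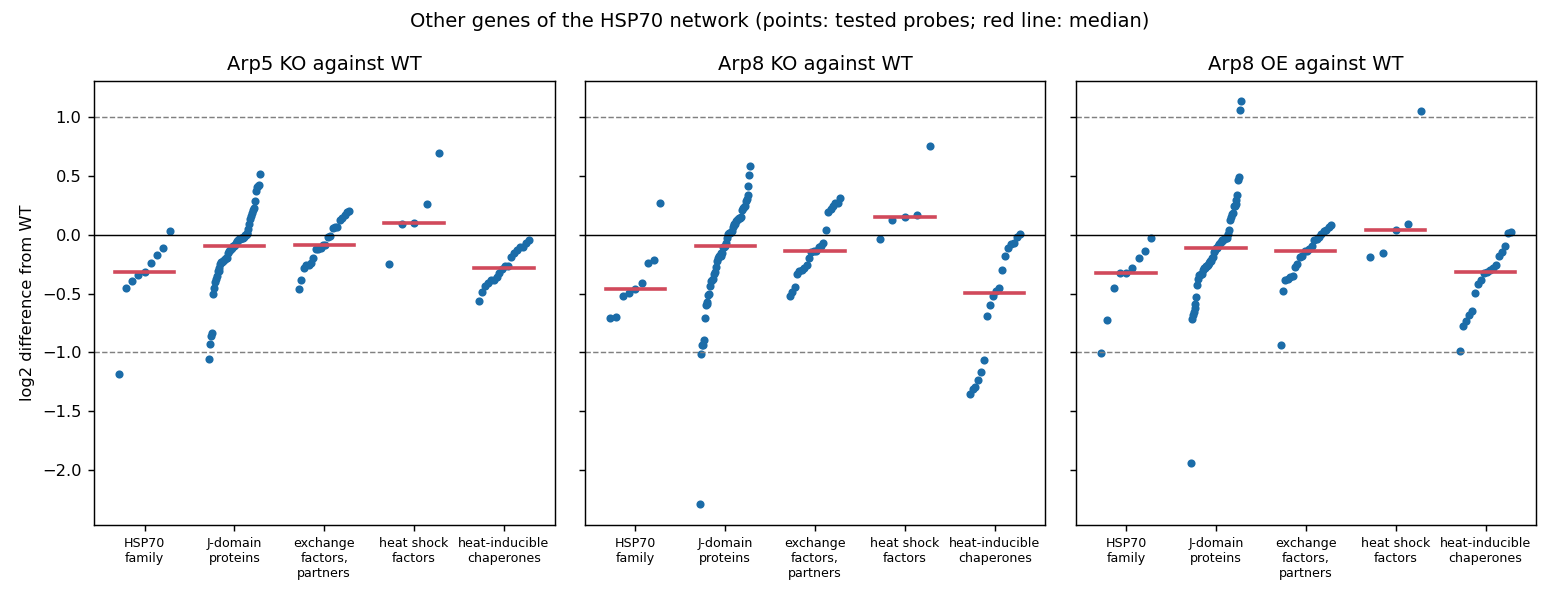
Log2 difference from WT (y axis) of probes tested in 5 lists of related genes, 1 panel per comparison, points for probes and red lines for medians, with dashed lines at 2-fold. Most points lie within 2-fold; in Arp8 KO 6 of the 18 probes of heat-inducible chaperones lie below −1.

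The genes nearest to the mean of the HSPA1A probes were found by the distance to it over the 3 log2 differences from WT. This mean was −1.71 and −1.69 in Arp5 KO and Arp8 KO and −0.76 in Arp8 OE. No HSPA1A probe lay at the mean: in Arp5 KO the probes stood at −2.66, −1.22 and −1.24. A gene close to it is thus near an average that no single HSPA1A probe showed. The 14443 probes searched carried a symbol, passed the detection flag on all 4 arrays and had no bright neighbour. ZMYM1, a zinc finger gene, was nearest at a distance of 0.232, with −1.66, −1.57 and −0.57, and its other probe gave −1.31, −1.46 and −0.75. GADD45G, a gene of the growth arrest and DNA damage family, followed at 0.279 with −1.49, −1.52 and −0.81. TMEM19 stood at 0.292, while its other probe gave −0.27, −0.22 and −0.21 and so did not share the pattern. MYOG at 0.433 and CAB39L at 0.471 had another probe that was not well above background. The likeness rests on 3 differences that share the WT array and is a description only.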

How the data were processed

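Total RNA of 4 Nalm-6 cultures was labelled with Cy3 and hybridised to 1-colour Agilent arrays, 1 array per group, on 1 slide with the same scan time. Groups followed the genotype in the labels. The deposited scanner files hold linear spot intensity from Agilent Feature Extraction (version 10.10.1.1, per the file headers), background-subtracted and not normalized between arrays. The deposited series matrix, also intensity, equals this processed signal times 1 factor per array (1.99 to 2.29), with column medians of 123.35 for WT, 126.45 for Arp8 OE, 120.4 for Arp5 KO and 121.6 for Arp8 KO; it served as an alternative.

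Outlier spots (69 to 76 per array) were left out, the 75th percentile over non-control spots set each array's scale, and log2 values were averaged over a probe's spots. To be tested, a probe had to pass the detection flag on 1 or both arrays of a comparison, on at least 50% of its spots. A dim probe was raised to the lowest level detected on its array where its own lay under it. Where the detected side was then not the brighter, no difference was given and the probe entered no median of the members or lists. The technical SD used the 50 repeated probes nearest in level, among those well above background on the array, of 264 printed 10 times. Spots within 20 pixels were adjacent; a neighbour was bright if over 2-fold brighter on 1 array than on each other. The number of arrays, 1 per group, limits the precision. Probes were named through RefSeq accessions. The array design names build hg19, and coordinates in the text are of GRCh38.p14 and only for RefSeq promoters. The script was tested on simulated data. The members, gene lists, the likeness rule and alternatives were chosen with earlier results of these data known. Genes outside the lists were named only as the 5 nearest to the mean of the HSPA1A probes. Python 3.11.15, numpy 2.4.6, pandas 2.3.3, R 4.3.3 and limma 3.58.1 (normexp with an offset of 50, on median spot signal and local background) were used.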

Additional observations from a re-analysis of the deposited data

How the results depend on the processing

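No paired analysis was possible because each group had 1 array. Over 10 alternatives, 399 differences of single member probes were recomputed: 333 moved by less than the technical SD, 65 moved further, and 1 that had been past 2-fold changed sign. Many of the 333 could not move. The series matrix (48 differences) is the same signal times 1 factor per array. Requiring detection on both arrays (43) and leaving out probes beside a bright spot (39) only drop probes. A gene with 1 probe keeps its value in a mean over probes. The tally is therefore no measure of robustness. Median scaling, quantile normalization, the series matrix and the absence of a floor left the counts of probes past 2-fold within 1.5 times and the medians within the technical SD. With normexp, 3 member probes were over 2-fold lower in Arp8 KO and 0 in Arp8 OE. With detection required on both arrays of a comparison, 0 were lower in Arp8 OE. With the mean over the probes of a gene, 2 genes were lower in Arp5 KO, 3 were in Arp8 KO, and the former's median was −0.44, as it was without probes beside a bright spot. With Arp8 OE as the reference, 1 probe was lower in each knockout, the medians were −0.083 for Arp5 KO and 0.032 for Arp8 KO, and HSPA1L in the latter stood at 0.041, the change of sign. At a 1.5-fold threshold 1 probe was higher in Arp8 KO, and 5 were lower and 1 higher in Arp8 OE. The share of all probes past this threshold was not computed, so these counts say nothing about the members as a set. The causes were not tested, beyond what the settings fix: fewer values where probes are averaged or left out, and another reference array. Signal over background limits HSPA1L, BAG3 and HSPA4L, which lie near or under detection.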
